A study of Homo sapiens with 24 samples.

Results

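The nuclear pore and importin genes are 36 genes, taken by symbol from a given list and all found in both deposited tables of 35587 gene symbols each. They comprise 23 nucleoporins and pore-associated proteins, 10 nuclear import receptors, the exportin XPO1, the small GTPase RAN and its exchange factor RCC1. All 36 passed the filter on low values in both lines. They were measured by poly(A) RNA sequencing in MOLM14 and OCI-AML2, established human acute myeloid leukaemia cell lines. Each line was exposed for 24 h to ARM165, to AZ2 or to the vehicle DMSO, which gave 6 groups of 4 libraries. The series title names a heterobifunctional degrader aimed at a PI3Kγ/AKT signalling module, without the labels assigning that role to ARM165 or AZ2. No dose is stated, so whether ARM165 and AZ2 were given at matching doses is unknown. Nothing says that replicates came from separate cultures, so the p-values reflect library-to-library spread that could be purely technical.

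The nuclear pore complex is the channel through which proteins and RNA pass between nucleus and cytoplasm. Its scaffold is built from an outer and an inner ring of nucleoporins, its channel is filled with flexible nucleoporins rich in phenylalanine and glycine, and filaments reach into the cytoplasm and form a basket on the nuclear side. Importin alpha proteins recognise classical nuclear localisation signals and bind importin beta (KPNB1), which carries the complex through the channel, while other receptors of the importin beta family bind cargo directly. Cargo is released on import and bound on export by RAN loaded with GTP, which RCC1 keeps abundant in the nucleus. Several of these genes are known in myeloid leukaemia, where NUP98 and NUP214 are partners of oncogenic gene fusions and XPO1 is a drug target.

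Promoter windows from RefSeq (GRCh38.p14; 250 bases before to 50 bases after the annotated start, 300 bases in all) matched 33 of the 36 genes by symbol, and 8 of these had more than 1 start. NUP43, KPNA4 and KPNB1 were not matched. The windows of 6 genes are shown because their transcripts carry the 2 directions described below: NUP107, NUP62, RAN and RCC1 were lower with ARM165 in both lines, and NUP88 and KPNA1 were higher in both. Capitals mark matches, on either strand, to 5 short motifs: the E-box CACGTG, the E2F motif TTTNGCGC, the NRF1 motif CATGCGC, the CCAAT box CCAAT and the ETS motif CCGGAAG. In the 5′ to 3′ direction of each gene, the windows read as follows. NUP107 lies at chr12:68686728-68687027 on the plus strand, NUP62 at chr19:49929455-49929754 on the minus strand, and RAN at chr12:130871816-130872115 on the plus strand. The second of the RCC1 starts lies at chr1:28517976-28518275 on the plus strand. NUP88 lies at chr17:5419613-5419912 on the minus strand and KPNA1 at chr3:122514890-122515189 on the minus strand.
NUP107: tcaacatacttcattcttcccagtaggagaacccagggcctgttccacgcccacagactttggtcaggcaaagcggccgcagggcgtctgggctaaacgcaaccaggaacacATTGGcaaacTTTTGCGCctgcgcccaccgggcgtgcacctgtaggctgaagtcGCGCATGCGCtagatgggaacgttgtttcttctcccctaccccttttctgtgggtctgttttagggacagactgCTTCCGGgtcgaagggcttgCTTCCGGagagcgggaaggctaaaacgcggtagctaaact
NUP62: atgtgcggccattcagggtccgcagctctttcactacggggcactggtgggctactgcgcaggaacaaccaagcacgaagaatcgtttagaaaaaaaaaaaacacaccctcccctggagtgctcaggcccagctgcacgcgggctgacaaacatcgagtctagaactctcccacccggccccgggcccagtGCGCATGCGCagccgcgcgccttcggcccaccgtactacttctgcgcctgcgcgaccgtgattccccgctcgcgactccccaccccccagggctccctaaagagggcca
RAN: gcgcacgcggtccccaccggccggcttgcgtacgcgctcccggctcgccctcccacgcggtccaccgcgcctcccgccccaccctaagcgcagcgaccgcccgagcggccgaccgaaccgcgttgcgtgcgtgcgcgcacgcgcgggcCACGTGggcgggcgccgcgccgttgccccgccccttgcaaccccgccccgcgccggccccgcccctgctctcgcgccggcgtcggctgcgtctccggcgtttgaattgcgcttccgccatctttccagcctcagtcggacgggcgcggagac
RCC1: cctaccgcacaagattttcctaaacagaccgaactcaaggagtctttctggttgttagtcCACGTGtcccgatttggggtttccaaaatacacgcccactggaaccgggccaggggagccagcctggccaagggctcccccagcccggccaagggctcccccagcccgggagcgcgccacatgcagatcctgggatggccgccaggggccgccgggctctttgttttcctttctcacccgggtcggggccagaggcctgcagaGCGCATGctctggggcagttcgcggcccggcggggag
NUP88: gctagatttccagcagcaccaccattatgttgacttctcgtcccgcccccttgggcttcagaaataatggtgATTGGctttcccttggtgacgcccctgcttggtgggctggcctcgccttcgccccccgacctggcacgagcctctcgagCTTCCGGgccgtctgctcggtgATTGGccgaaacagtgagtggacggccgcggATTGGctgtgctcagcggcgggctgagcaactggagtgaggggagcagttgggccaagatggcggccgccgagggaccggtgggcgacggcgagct
KPNA1: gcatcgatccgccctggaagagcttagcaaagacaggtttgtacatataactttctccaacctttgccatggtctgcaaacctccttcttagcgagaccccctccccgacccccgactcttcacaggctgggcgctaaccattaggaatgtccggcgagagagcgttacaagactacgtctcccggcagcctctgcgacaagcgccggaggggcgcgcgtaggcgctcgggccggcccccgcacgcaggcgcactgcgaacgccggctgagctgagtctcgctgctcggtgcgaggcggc

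The NUP107 window held an inverted CCAAT box, an E2F motif, 2 ETS motifs and an NRF1 motif read from both strands of the same stretch. The NUP62 window held an NRF1 motif of the same kind. The RAN window held an E-box, and the second RCC1 window an E-box and an NRF1 motif. The first RCC1 window, not shown, held an NRF1 motif and an ETS motif and no E-box. The NUP88 window held 3 CCAAT boxes and 1 ETS motif, and the KPNA1 window held none of the 5 sets of letters. Over the 33 matched genes, the E-box was present in 7 (21.2%), against 8.77% of all 27305 genes with promoter windows. These 27305 include genes that did not pass the filter on low values, which all 33 matched genes passed. The background shares are therefore not matched for expression. The E2F motif was present in 3 genes (9.09%), against 2.17% of all genes, and the NRF1 motif in 4 (12.1%), against 5.3%. CCAAT boxes were present in 16 (48.5%), against 39.7% of all genes, and ETS motifs in 10 (30.3%), against 12.2%. Of the 20 matched genes that were lower with ARM165 in both lines, 5 held an E-box, 3 an E2F motif and 4 an NRF1 motif. The 5 matched genes that were higher in both held 0 of each. An E-box was also in windows of KPNA3 and XPO1, which were called in 1 line each. With only 5 higher genes, 0 matches cannot show that a motif follows the direction of change. CCAAT boxes were in 8 (40%) of those 20 and 2 (40%) of those 5, and ETS motifs in 8 (40%) of the 20 and 1 (20%) of the 5. The NRF1 letters were changed after a first count: with GCG required before them, 3 of the 33 genes (9.09%) held the motif, against 1.52% of all genes, and 3 of the 20 lower genes held it. The 5 motifs and the 6 windows shown were likewise chosen with values and matches known. No 2 different motifs overlapped in these windows. A match describes the letters only, and a missing match says only that the letters are not in the window.

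Values are the authors' normalized estimated read counts per gene symbol, deposited separately for each line. Whether both lines were scaled together is not stated. No level was compared between lines or between genes. Estimated depth was 35.4 to 59.0 M reads per library. In MOLM14 it was 36.1 to 38.7 M with AZ2 and 44.8 to 59.0 M with DMSO, without overlap. With ARM165 it was 35.4 to 50.2 M there, and in OCI-AML2 the treatments overlapped. Any effect of depth on the comparisons was not tested. The summed values were 37.3 to 41.2 M in the MOLM14 ARM165 libraries, against 43.9 to 46.0 M with AZ2 and 43.3 to 45.0 M with DMSO. OCI-AML2 totals overlapped between treatments. Among the 4 OCI-AML2 DMSO libraries, replicate 2 held the highest value of 27 of the 36 genes, with a median excess of 0.16 log2 units over the other 3 libraries, against 0.055 over all genes. ARM165 replicate 4 held the highest value of 21 of 36 genes in MOLM14 and of 22 of 36 in OCI-AML2. Counts without these libraries are given below. Where a call is said to be lost without several libraries, each was left out alone. All 7 myeloid markers had values above 0 in both lines. Their summed value was 32331 to 38239 with ARM165, 55668 to 58279.5 with AZ2 and 55538 to 58509 with DMSO in MOLM14, and 49439.9 to 51279.9 with ARM165, 89013 to 95894 with AZ2 and 89703 to 96391 with DMSO in OCI-AML2, so it was lower with ARM165 beside the changes described here. Its part in them was not tested. CEBPA, LYZ and SPI1 made up most of this sum. Over all treatments LYZ ranged from 2498 to 20814 in MOLM14 and from 18050 to 51633 in OCI-AML2. MPO, CSF1R and ITGAM stayed at 191 or below in both lines, so the sum says little about them. Of the 6 T and NK cell markers the sum was 411 to 489 with ARM165, 568 to 688 with AZ2 and 567 to 629.6 with DMSO in MOLM14, and 505 to 677 with ARM165, 678 to 897 with AZ2 and 784 to 929.7 with DMSO in OCI-AML2. NKG7 made up most of this sum in both lines, and CD3D, CD3E, CD2 and CD7 stayed at 12.7 or below. The 5 B cell markers summed to 323 to 412 with ARM165, 475 to 714 with AZ2 and 555 to 675 with DMSO in MOLM14, mostly PAX5, and to 41.5 to 86.5 with ARM165, 47.3 to 73.1 with AZ2 and 81.0 to 133 with DMSO in OCI-AML2. The 5 erythroid and megakaryocyte markers summed to at most 11.6 in MOLM14 and 43.6 in OCI-AML2. The 6 epithelial and fibroblast markers summed to 3103 to 3383 with ARM165, 1852 to 2214 with AZ2 and 1816 to 2144 with DMSO in MOLM14, where KRT18 made up most of it, and to at most 51.9 in OCI-AML2.

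With ARM165 most of these transcripts fell and a smaller group rose. Of the 36 genes, 26 fell, 6 rose and 4 did not pass the test in MOLM14, and 22 fell, 8 rose and 6 did not pass in OCI-AML2. Each change is given in log2 units with its SE, fitted by limma to log2(value + 1), a scale that understates the change of low genes. A gene is called at a Benjamini-Hochberg adjusted p under 0.05 over all genes tested. Of the 15288 genes tested in MOLM14, 34.0% were called lower and 35.5% higher (69.5% in either direction). Of the 15377 tested in OCI-AML2, 31.6% were called lower and 34.2% higher (65.8%). The median change of the 36 genes was -0.44 in MOLM14, against 0.031 over all genes, and -0.29 in OCI-AML2, against 0.034. In size regardless of sign, the median change of the 36 was 0.55 in MOLM14 and 0.60 in OCI-AML2, against 0.63 and 0.66 over all genes. A larger share of the 36 genes than of all genes fell and a smaller share rose. The typical size of change was slightly below that of all genes. The list of 36 was chosen with earlier results of these data known. The shares here therefore describe the listed genes and cannot test whether such genes fall as a group. Both lines called the same 22 genes lower, which is 61.1% of the 36, against 24.6% of the 14287 genes tested in both lines. Higher in both were 6 genes (16.7%, against 26.8% of all genes): NUP88, RAE1, RANBP2, KPNA1, KPNA4 and TNPO1. No gene was called in opposite directions in the 2 lines, against 4.45% of all genes. Without OCI-AML2 DMSO replicate 2, 19 genes were called lower and 8 higher in OCI-AML2; without ARM165 replicate 4 the counts were 21 and 7 there, and 26 and 6 in MOLM14. When the values were instead scaled to the library totals, the median of all genes moved by 0.19 log2 units in MOLM14, and 21 genes were called lower and 10 higher there. All changes are therefore relative to the other genes, and in these bulk values a lower level in every cell and a smaller share of cells with the transcript cannot be told apart.

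**Figure D1:**
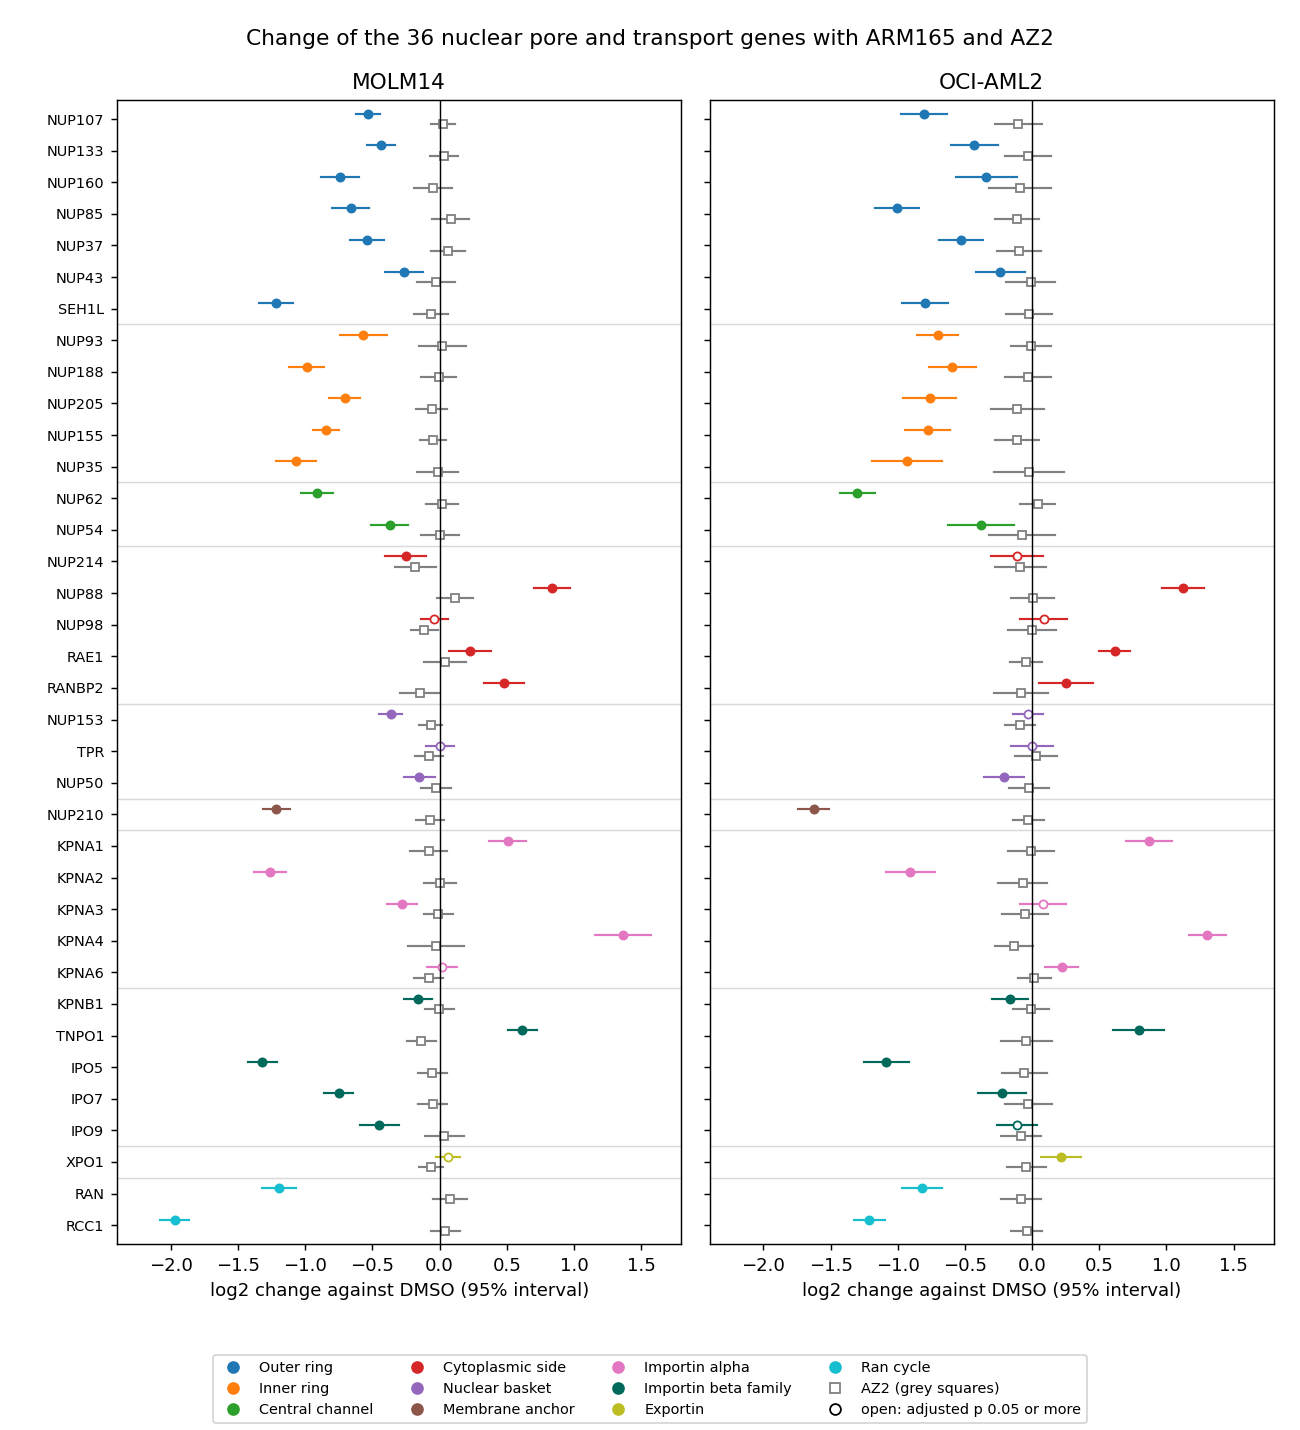
Log2 change against DMSO with 95% interval (horizontal axis) for each of the 36 genes (rows, grouped by role), with ARM165 drawn beside AZ2 in each line. The ARM165 points of the ring nucleoporins, RAN and RCC1 lie left of 0 in both lines, KPNA4 and NUP88 lie farthest right, and the AZ2 points stay near 0.

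All 7 outer ring genes fell in both lines, with a median change of -0.54 in MOLM14 and -0.53 in OCI-AML2. SEH1L, which also serves in the GATOR complex that signals amino acid supply, had the largest fall of the ring in MOLM14. In MOLM14, SEH1L stood at 1252, 1224, 1402 and 1427 with ARM165, 3066, 2851, 3008 and 2858 with AZ2 and 3071, 2978, 3299 and 2989 with DMSO. OCI-AML2 libraries held SEH1L at 1097, 1039, 1092 and 1333 with ARM165, 1965, 2007, 1809.6 and 2006 with AZ2 and 2042, 2135, 1919 and 1817 with DMSO. All 4 ARM165 libraries lay below every AZ2 and DMSO library in both lines. The change was -1.22 ± 0.059 in MOLM14 and -0.80 ± 0.080 in OCI-AML2 (adjusted p = 5.22e-11 in MOLM14 and 2.85e-07 in OCI-AML2). NUP85 moved by -0.66 ± 0.065 in MOLM14 and -1.01 ± 0.076 in OCI-AML2, where it fell most within the ring. NUP107 changed by -0.53 ± 0.043 in MOLM14 and -0.80 ± 0.081 in OCI-AML2, NUP133 by -0.43 ± 0.049 in MOLM14 and -0.43 ± 0.081 in OCI-AML2, and NUP37 by -0.54 ± 0.060 in MOLM14 and -0.53 ± 0.076 in OCI-AML2. NUP160, a large scaffold subunit, changed by -0.74 ± 0.066 in MOLM14 and -0.34 ± 0.11 in OCI-AML2. NUP43 had the smallest change of the ring, at -0.27 ± 0.065 in MOLM14 and -0.24 ± 0.085 in OCI-AML2. The NUP43 call in OCI-AML2 was lost without ARM165 replicate 1 (-0.22, adjusted p = 0.0559) and 3 (-0.23, adjusted p = 0.0524) and DMSO replicate 2 (-0.22, adjusted p = 0.0528), and in MOLM14 it was lost when scaling to totals (-0.074, adjusted p = 0.196).

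The 5 inner ring genes, which anchor the scaffold to the channel and the membrane, also all fell in both lines, with medians of -0.84 in MOLM14 and -0.76 in OCI-AML2. NUP35, a membrane-binding inner ring subunit, had the largest mean change of the ring over both lines. In MOLM14, NUP35 stood at 388, 358, 363 and 373 with ARM165, 809.7, 793, 785 and 697 with AZ2 and 812, 752, 749.6 and 799 with DMSO. OCI-AML2 libraries held NUP35 at 367, 321, 298 and 436 with ARM165, 773, 699.9, 624 and 562 with AZ2 and 646, 659, 712 and 672 with DMSO. Every ARM165 library was lower than every AZ2 and DMSO library of its line. Its changes were -1.07 ± 0.070 in MOLM14 and -0.93 ± 0.12 in OCI-AML2 (adjusted p = 1.84e-09 in MOLM14 and 5.58e-06 in OCI-AML2). NUP188 changed by -0.99 ± 0.061 in MOLM14 and -0.59 ± 0.081 in OCI-AML2, and NUP155 by -0.84 ± 0.045 in MOLM14 and -0.78 ± 0.078 in OCI-AML2. NUP205 changed by -0.71 ± 0.055 in MOLM14 and -0.76 ± 0.093 in OCI-AML2, and NUP93, the linker of the inner ring, by -0.57 ± 0.082 in MOLM14 and -0.70 ± 0.071 in OCI-AML2.

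Both central channel genes and the membrane anchor NUP210 fell in both lines. NUP62 carries the flexible repeats that bind transport receptors. In MOLM14, NUP62 stood at 944, 966, 1113 and 971 with ARM165, 1848, 1931, 1934 and 1889 with AZ2 and 1812, 1878, 1910.2 and 1893 with DMSO. OCI-AML2 libraries held NUP62 at 578, 627, 612 and 586 with ARM165, 1562, 1474, 1579.5 and 1489.6 with AZ2 and 1543, 1396, 1486 and 1509 with DMSO. All ARM165 libraries lay below every other library of their line. The NUP62 change was -0.91 ± 0.056 in MOLM14 and -1.30 ± 0.061 in OCI-AML2 (adjusted p = 8.68e-10 in MOLM14 and 4.08e-11 in OCI-AML2). In GENCODE release 29, exons of NUP62 share 563 bases with ATF5 on the opposite strand. ATF5 averaged 7416 with ARM165, against 1428 with DMSO in MOLM14, and 31943 with ARM165, against 3332 with DMSO in OCI-AML2, so it moved the other way. Whether counting used strand is not stated. On the same strand NUP62 shares 336 exon bases with IL4I1 and 384 with AC011452.1. IL4I1 averaged 125.6 with ARM165, against 44.6 with DMSO in MOLM14. In OCI-AML2 it averaged 90.2 with ARM165, against 26.1 with DMSO. AC011452.1 averaged at most 3.48 in any group. How shared reads bear on the NUP62 values was not tested. NUP54, the partner of NUP62 in the channel, changed by -0.37 ± 0.066 in MOLM14 and -0.38 ± 0.11 in OCI-AML2 (adjusted p = 1.20e-04 in MOLM14 and 0.00837 in OCI-AML2). NUP210 spans the nuclear membrane at the pore and had the largest fall of the 36 in OCI-AML2. In MOLM14, NUP210 stood at 2635, 2400.3, 2762 and 2531 with ARM165, 5575, 5731, 5974 and 5497 with AZ2 and 5755, 6134, 6074 and 5963 with DMSO. OCI-AML2 libraries held NUP210 at 1495, 1566, 1593 and 1429.5 with ARM165, 4695, 4412, 4653 and 4629 with AZ2 and 5004, 4561, 4449.8 and 4750.2 with DMSO. The ARM165 values sat apart from all AZ2 and DMSO values. The NUP210 change was -1.21 ± 0.048 in MOLM14 and -1.62 ± 0.054 in OCI-AML2 (adjusted p = 6.20e-12 in MOLM14 and 1.05e-12 in OCI-AML2), equal to 0.431 of the DMSO level in MOLM14 and 0.324 of it in OCI-AML2.

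Of the 5 genes listed with the cytoplasmic side, 3 rose in both lines, and NUP214 fell in MOLM14. NUP88 binds NUP214 on the cytoplasmic face. In MOLM14, NUP88 stood at 5864, 6479, 6427 and 7409.9 with ARM165, 4069, 3749.5, 4134 and 3880.0 with AZ2 and 3489, 3630.0, 3641 and 3845 with DMSO. OCI-AML2 libraries held NUP88 at 14357, 11718, 14463 and 14998 with ARM165, 6013, 6484, 6693 and 6282 with AZ2 and 5796, 6488, 6748 and 6406 with DMSO. All ARM165 libraries lay above every AZ2 and DMSO library. NUP88 rose by 0.84 ± 0.062 in MOLM14 and 1.12 ± 0.073 in OCI-AML2 (adjusted p = 7.35e-09 in MOLM14 and 1.90e-09 in OCI-AML2). Exons of NUP88 share 520 bases with RPAIN on the opposite strand, whose mean was 3558 with ARM165, against 2522 with DMSO in MOLM14, and 4189 with ARM165, against 3062 with DMSO in OCI-AML2. RAE1 is an mRNA export factor bound by NUP98. In MOLM14, RAE1 stood at 3725, 4556, 4043 and 4015 with ARM165, 3652, 3521, 3409.7 and 3766 with AZ2 and 3229, 3691, 3937 and 3140.0 with DMSO. OCI-AML2 libraries held RAE1 at 4331, 4569, 4448 and 4589 with ARM165, 2635, 2905, 2764 and 3093 with AZ2 and 2836, 3028, 2978 and 2883 with DMSO. ARM165 and DMSO libraries overlapped in MOLM14 and did not in OCI-AML2. The change was 0.23 ± 0.074 in MOLM14 and 0.61 ± 0.055 in OCI-AML2 (adjusted p = 0.0135 in MOLM14 and 8.18e-08 in OCI-AML2), and the MOLM14 call was lost without DMSO replicate 4 (0.18, adjusted p = 0.0525).

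RANBP2 forms the cytoplasmic filaments and acts as a SUMO ligase. In MOLM14, RANBP2 stood at 788, 756, 726 and 856 with ARM165, 514, 507, 505 and 497 with AZ2 and 567, 538, 582 and 551 with DMSO. OCI-AML2 libraries held RANBP2 at 411, 367, 400.4 and 433 with ARM165, 328, 335, 290.4 and 328 with AZ2 and 335, 369, 327 and 324 with DMSO. The ARM165 libraries lay above all DMSO libraries in MOLM14, and overlapped with them in OCI-AML2. RANBP2 changed by 0.48 ± 0.068 in MOLM14 and 0.25 ± 0.094 in OCI-AML2 (adjusted p = 1.35e-05 in MOLM14 and 0.0297 in OCI-AML2). The OCI-AML2 call was lost under quantile normalization (0.095, adjusted p = 0.369), and without ARM165 replicate 1 (0.24, adjusted p = 0.0633), 3 (0.25, adjusted p = 0.0521) and 4 (0.21, adjusted p = 0.082) and DMSO replicate 1 (0.25, adjusted p = 0.0548), 3 (0.23, adjusted p = 0.0652) and 4 (0.23, adjusted p = 0.0689). Near-identical RGPD copies of RANBP2 summed to 161 to 209.8 with ARM165, against 39.8 to 139 with DMSO in MOLM14, and to 1097 to 1377 with ARM165, against 266 to 402 with DMSO in OCI-AML2. How reads were split between them and RANBP2 is not stated, so the RANBP2 values are uncertain. NUP214 binds the export receptors on the cytoplasmic face. In MOLM14, NUP214 stood at 599.9, 563, 557 and 562 with ARM165, 606, 646, 609 and 541 with AZ2 and 698, 637, 691 and 693 with DMSO. OCI-AML2 libraries held NUP214 at 898, 1193, 1180.1 and 1234 with ARM165, 1125, 1073, 1146 and 1207 with AZ2 and 1259, 1223, 1201 and 1147 with DMSO. The ARM165 values lay below the DMSO values in MOLM14 and overlapped with them in OCI-AML2, and they overlapped with AZ2 in both lines. NUP214 changed by -0.25 ± 0.071 in MOLM14 (adjusted p = 0.00556), a call that was lost when scaling to totals (-0.060, adjusted p = 0.469). In OCI-AML2 its change of -0.11 ± 0.090 did not pass (adjusted p = 0.298). NUP98, listed here with the cytoplasmic side, is a mobile channel nucleoporin. In MOLM14, NUP98 stood at 1767, 1684, 1838 and 1719.7 with ARM165, 1751, 1633, 1615 and 1653 with AZ2 and 1818, 1759, 1826 and 1798 with DMSO. OCI-AML2 libraries held NUP98 at 1618, 1816, 1802 and 1734 with ARM165, 1659, 1538, 1587 and 1780.3 with AZ2 and 1455, 1942, 1643 and 1562 with DMSO. ARM165 and DMSO libraries overlapped in both lines. Its changes of -0.040 ± 0.047 in MOLM14 and 0.085 ± 0.083 in OCI-AML2 did not pass (adjusted p = 0.473 in MOLM14 and 0.387 in OCI-AML2), with intervals of -0.14 to 0.061 in MOLM14 and -0.092 to 0.26 in OCI-AML2. When scaling to totals, the MOLM14 value turned to 0.15, adjusted p = 0.0104.

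**Figure D2:**
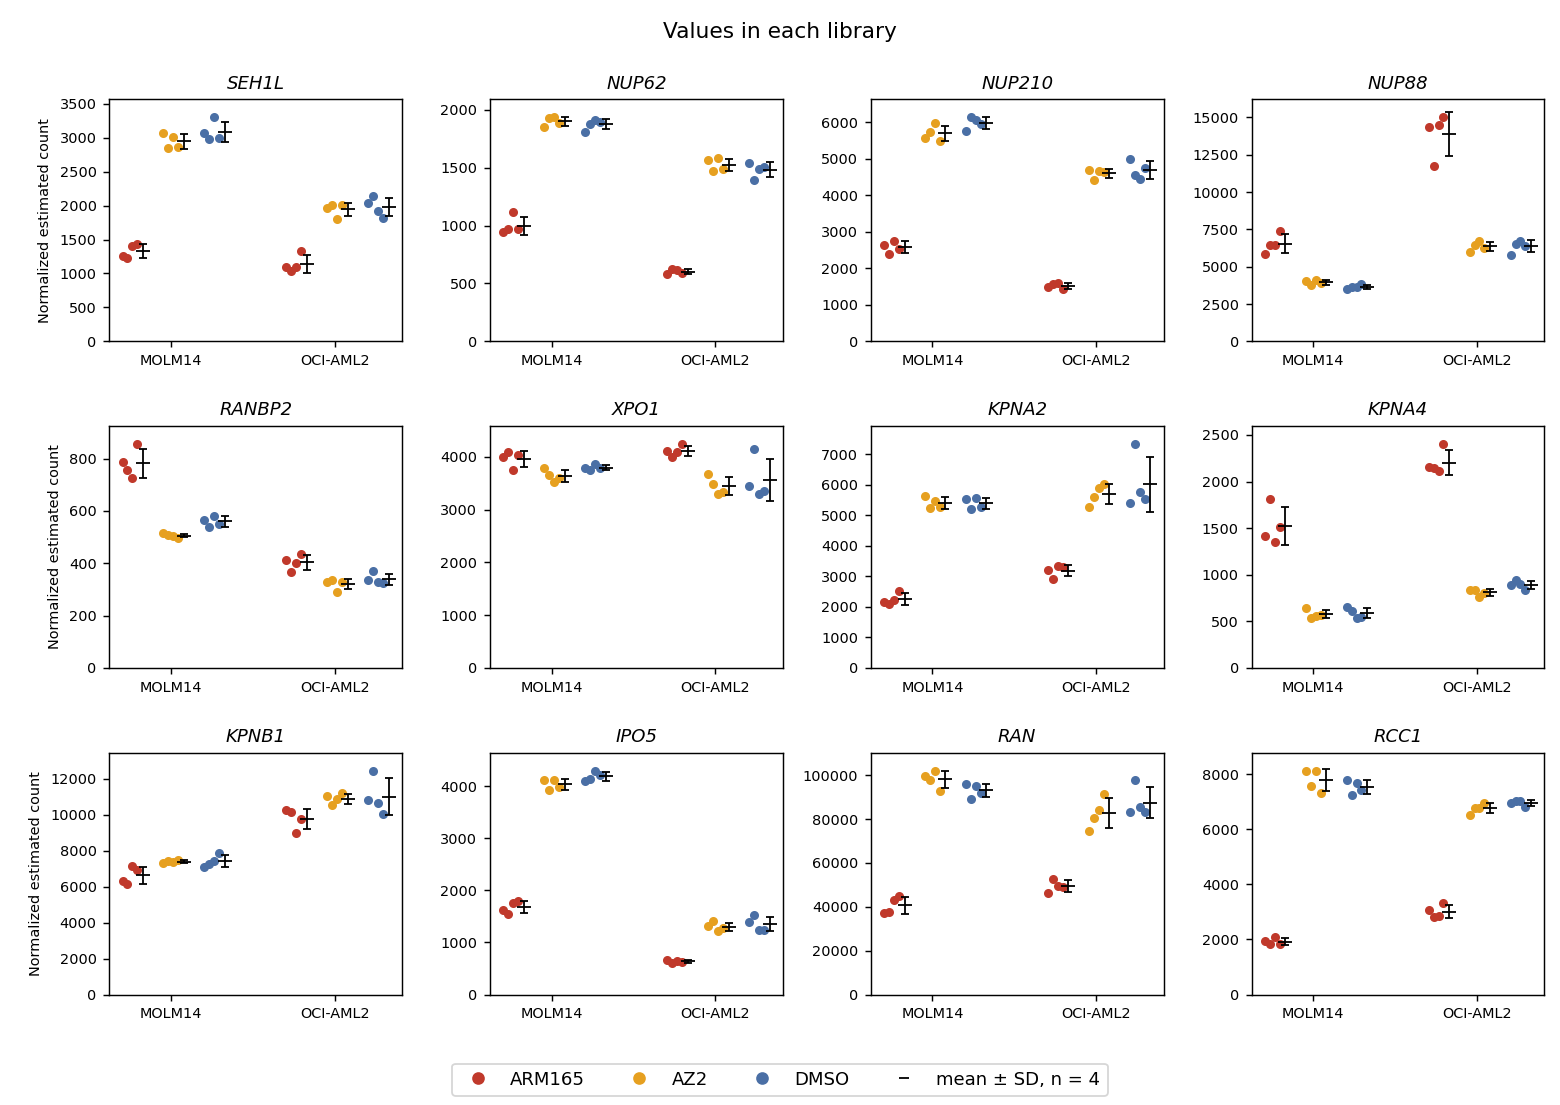
Normalized values of selected genes in each library (vertical axis, linear from 0), by line and treatment, with bars for the group mean ± SD (n = 4 libraries each). In both lines the 4 ARM165 points of NUP210, RAN and RCC1 sit below all others, and those of NUP88 and KPNA4 sit above.

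On the nuclear basket, 2 of 3 genes fell in MOLM14, of which NUP50 turned positive when scaling to totals, and 1 of 3 fell in OCI-AML2. NUP153 is a basket protein that binds transport receptors and chromatin. In MOLM14, NUP153 stood at 15854, 15918, 15215 and 16110.2 with ARM165, 20651, 19185, 19002 and 18844 with AZ2 and 20031, 19879.9, 21073 and 20209 with DMSO. OCI-AML2 libraries held NUP153 at 7099, 6952, 6518 and 6824 with ARM165, 6522, 6915, 6315 and 6501 with AZ2 and 7443, 7187, 6909 and 6476 with DMSO. The ARM165 values lay below all AZ2 and DMSO values in MOLM14, and the treatments overlapped in OCI-AML2. NUP153 changed by -0.36 ± 0.040 in MOLM14 (adjusted p = 6.87e-07), and its estimate of -0.031 ± 0.053 in OCI-AML2 did not pass (adjusted p = 0.625). The test of the difference between the lines passed, at 0.33 ± 0.062 (adjusted p = 1.22e-04). NUP50, which binds importin alpha, changed by -0.15 ± 0.053 in MOLM14 and -0.21 ± 0.070 in OCI-AML2 (adjusted p = 0.0208 in MOLM14 and 0.0165 in OCI-AML2), and its MOLM14 value turned to 0.041, adjusted p = 0.432 when scaling to totals. The MOLM14 NUP50 call was also lost without ARM165 replicate 2 (-0.12, adjusted p = 0.0728) and DMSO replicate 1 (-0.13, adjusted p = 0.058), and the OCI-AML2 call without ARM165 replicate 2 (-0.17, adjusted p = 0.0528). TPR, the filament protein of the basket, had estimates of 0.0035 ± 0.048 in MOLM14 and -0.0018 ± 0.074 in OCI-AML2, with intervals of -0.098 to 0.11 in MOLM14 and -0.16 to 0.16 in OCI-AML2, and did not pass in either line. When scaling to totals it passed in MOLM14 (0.19, adjusted p = 0.00209).

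The 5 importin alpha genes divided. KPNA2 fell in both lines, KPNA4 and KPNA1 rose in both, and KPNA3 and KPNA6 passed in 1 line each. KPNA2 is the importin alpha most tied to proliferating cells. In MOLM14, KPNA2 stood at 2172, 2091, 2215 and 2534 with ARM165, 5646, 5245, 5466 and 5269 with AZ2 and 5537, 5198, 5573 and 5273 with DMSO. OCI-AML2 libraries held KPNA2 at 3209, 2928, 3326 and 3292 with ARM165, 5271, 5586, 5888 and 6019 with AZ2 and 5404, 7341, 5770.0 and 5548 with DMSO. ARM165 libraries lay below all others. KPNA2 changed by -1.26 ± 0.056 in MOLM14 and -0.91 ± 0.085 in OCI-AML2 (adjusted p = 2.04e-11 in MOLM14 and 1.30e-07 in OCI-AML2), and without OCI-AML2 DMSO replicate 2, where it stood highest, by -0.81, adjusted p = 2.83e-08. A KPNA2 pseudogene, KPNA2P3, averaged 622 with ARM165, against 353 with DMSO in MOLM14, and 739.5 with ARM165, against 502 with DMSO in OCI-AML2. KPNA4, also called importin alpha 3, carries cargo such as NF-κB subunits. In MOLM14, KPNA4 stood at 1418, 1808, 1346 and 1516 with ARM165, 639, 532, 562 and 572 with AZ2 and 658, 609, 534 and 550.1 with DMSO. OCI-AML2 libraries held KPNA4 at 2153, 2149, 2109 and 2403 with ARM165, 837, 838, 759.9 and 809 with AZ2 and 885, 939.5, 898 and 841 with DMSO. ARM165 libraries lay above all others in both lines. The KPNA4 rise was the largest of the 36 genes, at 1.37 ± 0.097 in MOLM14 and 1.30 ± 0.066 in OCI-AML2 (adjusted p = 4.59e-09 in MOLM14 and 9.58e-11 in OCI-AML2), which is 2.58 times the DMSO level in MOLM14 and 2.47 times in OCI-AML2. KPNA1, also called importin alpha 5, is another of the cargo adaptors. In MOLM14, KPNA1 stood at 4156, 4532, 4304 and 4704 with ARM165, 2908, 3013, 2639.8 and 3216 with AZ2 and 3186, 2973, 3354 and 2922 with DMSO. OCI-AML2 libraries held KPNA1 at 3059.6, 2733, 2718 and 3111 with ARM165, 1545, 1629, 1662 and 1482 with AZ2 and 1615, 1852, 1495 and 1419.7 with DMSO. The ARM165 values again lay above all AZ2 and DMSO values. KPNA1 changed by 0.51 ± 0.064 in MOLM14 and 0.87 ± 0.081 in OCI-AML2 (adjusted p = 3.57e-06 in MOLM14 and 1.29e-07 in OCI-AML2). Exons of KPNA1 share 1377 bases with the antisense gene AC083798.2 on the opposite strand, which has no deposited values under that symbol. KPNA6 is a close relative of KPNA1. In MOLM14, KPNA6 stood at 1857, 1943, 1822 and 2016 with ARM165, 1764, 1789, 1856 and 1707 with AZ2 and 1776, 1868, 1975 and 1909.7 with DMSO. OCI-AML2 libraries held KPNA6 at 1843, 1827, 1831 and 1903 with ARM165, 1617, 1569, 1600.2 and 1645 with AZ2 and 1669, 1679.8, 1559 and 1456 with DMSO. ARM165 and DMSO values overlapped in MOLM14, and the ARM165 values lay above the others in OCI-AML2. The KPNA6 change did not pass in MOLM14 (0.021 ± 0.052, adjusted p = 0.737) and was 0.22 ± 0.058 in OCI-AML2 (adjusted p = 0.00335), and it passed in MOLM14 when scaling to totals (0.21, adjusted p = 8.53e-04). KPNA3 changed by -0.28 ± 0.052 in MOLM14 (adjusted p = 2.01e-04), which was lost when scaling to totals (-0.085, adjusted p = 0.0622), and its estimate of 0.081 ± 0.081 in OCI-AML2 did not pass (adjusted p = 0.399).

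Among the 5 importin beta family genes, IPO5, IPO7 and KPNB1 fell in both lines, TNPO1 rose in both and IPO9 fell in MOLM14, though KPNB1 turned positive in MOLM14 when scaling to totals. IPO5 imports ribosomal proteins and histones. In MOLM14, IPO5 stood at 1622, 1539.5, 1761 and 1797 with ARM165, 4113, 3918, 4118 and 3980.1 with AZ2 and 4090.1, 4128, 4298 and 4219 with DMSO. OCI-AML2 libraries held IPO5 at 663, 602, 649 and 631 with ARM165, 1312, 1402, 1212 and 1272 with AZ2 and 1398, 1533, 1246 and 1245 with DMSO. Every ARM165 value lay below every other value of its line. IPO5 changed by -1.32 ± 0.051 in MOLM14 and -1.09 ± 0.079 in OCI-AML2 (adjusted p = 4.79e-12 in MOLM14 and 6.52e-09 in OCI-AML2). IPO7 also imports ribosomal proteins. In MOLM14, IPO7 stood at 962, 1010.1, 943 and 1046 with ARM165, 1668, 1609.7, 1578 and 1569 with AZ2 and 1612, 1675, 1687 and 1683 with DMSO. OCI-AML2 libraries held IPO7 at 972, 869, 905 and 1109 with ARM165, 1121, 1174, 1020.1 and 1090.4 with AZ2 and 1168, 1193, 1033 and 1098 with DMSO. ARM165 values lay below all others in MOLM14, and overlapped with both other treatments in OCI-AML2. IPO7 changed by -0.75 ± 0.051 in MOLM14 and -0.22 ± 0.083 in OCI-AML2 (adjusted p = 2.58e-09 in MOLM14 and 0.0269 in OCI-AML2). The OCI-AML2 call was lost when scaling to totals (-0.19, adjusted p = 0.0576), and without ARM165 replicate 2 (-0.18, adjusted p = 0.0861) and 3 (-0.20, adjusted p = 0.0757) and DMSO replicate 1 (-0.20, adjusted p = 0.0672) and 2 (-0.19, adjusted p = 0.0687). TNPO1 imports RNA-binding proteins such as HNRNPA1. In MOLM14, TNPO1 stood at 2927, 3068, 2848 and 3033 with ARM165, 1767, 1789, 1882 and 1618 with AZ2 and 1947, 1929.6, 1964 and 1905 with DMSO. OCI-AML2 libraries held TNPO1 at 1741, 1589, 1561 and 1752 with ARM165, 939.5, 1067, 908 and 816 with AZ2 and 931, 973, 1069 and 865 with DMSO. The ARM165 values lay above all others in both lines. TNPO1 changed by 0.62 ± 0.051 in MOLM14 and 0.79 ± 0.088 in OCI-AML2 (adjusted p = 2.58e-08 in MOLM14 and 9.20e-07 in OCI-AML2). KPNB1 is importin beta itself, the carrier of the classical import complex. In MOLM14, KPNB1 stood at 6319.7, 6159, 7136 and 6935 with ARM165, 7297, 7429.6, 7345 and 7501 with AZ2 and 7092, 7256, 7413 and 7853 with DMSO. OCI-AML2 libraries held KPNB1 at 10249, 10125, 8996 and 9743 with ARM165, 11033, 10530.1, 10844 and 11178 with AZ2 and 10801, 12455, 10647 and 10047 with DMSO. ARM165 values overlapped with DMSO values in both lines. The KPNB1 change was -0.16 ± 0.050 in MOLM14, which turned to 0.032, adjusted p = 0.54 when scaling to totals, and -0.17 ± 0.063 in OCI-AML2 (adjusted p = 0.0102 in MOLM14 and 0.0313 in OCI-AML2). The OCI-AML2 call was lost under quantile normalization (-0.12, adjusted p = 0.0658), without a filter (-0.17, adjusted p = 0.0605), when scaling to totals (-0.13, adjusted p = 0.0563), with no variance trend (-0.17, adjusted p = 0.0628), with only the 2 groups in the fit (-0.17, adjusted p = 0.0534), and without ARM165 replicate 3 (-0.13, adjusted p = 0.112) and 4 (-0.16, adjusted p = 0.0549) and DMSO replicate 2 (-0.10, adjusted p = 0.102). IPO9, which imports histones, changed by -0.45 ± 0.068 in MOLM14 (adjusted p = 2.41e-05) and its estimate of -0.11 ± 0.069 in OCI-AML2 did not pass (adjusted p = 0.168), though it passed under quantile normalization (-0.16, adjusted p = 0.0329).

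RAN and RCC1, the core of the Ran cycle, fell in both lines, and RCC1 had the largest fall of the 36 genes in MOLM14. RCC1 loads RAN with GTP on chromatin. In MOLM14, RCC1 stood at 1943, 1853, 2092 and 1818 with ARM165, 8144, 7593, 8118 and 7322 with AZ2 and 7817, 7254, 7688 and 7453 with DMSO. OCI-AML2 libraries held RCC1 at 3061, 2808, 2867 and 3315 with ARM165, 6518, 6796, 6789.7 and 6974 with AZ2 and 6972, 7048, 7038 and 6800.1 with DMSO. ARM165 values lay below all others. The group means were 1927 ± 122 with ARM165, 7794 ± 405 with AZ2 and 7553 ± 249.6 with DMSO in MOLM14 (SD, n = 4 each). RCC1 changed by -1.97 ± 0.052 in MOLM14, or 0.255 of the DMSO level, and by -1.21 ± 0.054 in OCI-AML2, or 0.432 (adjusted p = 1.16e-13 in MOLM14 and 2.39e-11 in OCI-AML2). RCC1 shares 214 exon bases on the same strand with SNHG3, which has no deposited values under that symbol. Whether reads of the shared bases counted toward RCC1 could therefore not be checked. RAN is the GTPase that sets the direction of transport. In MOLM14, RAN stood at 37118, 37861, 43186 and 44776 with ARM165, 99629, 97965, 102176 and 92849.5 with AZ2 and 95883, 89048, 95275 and 92078 with DMSO. OCI-AML2 libraries held RAN at 46500.0, 52780.3, 49338 and 49149 with ARM165, 74782, 80562, 84025 and 91462 with AZ2 and 83148, 98053, 85721 and 83381 with DMSO. All ARM165 libraries lay below all AZ2 and DMSO libraries. RAN changed by -1.20 ± 0.060 in MOLM14 and -0.82 ± 0.070 in OCI-AML2 (adjusted p = 8.24e-11 in MOLM14 and 4.10e-08 in OCI-AML2). XPO1 exports proteins with leucine-rich signals. In MOLM14, XPO1 stood at 3995, 4097, 3742 and 4027 with ARM165, 3785, 3648, 3523 and 3594 with AZ2 and 3783, 3749, 3873 and 3784 with DMSO. OCI-AML2 libraries held XPO1 at 4114, 4002, 4097 and 4245 with ARM165, 3672, 3485, 3293 and 3329 with AZ2 and 3443, 4149, 3293 and 3351 with DMSO. ARM165 values overlapped with DMSO values in both lines. The XPO1 change of 0.062 ± 0.041 in MOLM14 did not pass (adjusted p = 0.199), and the change of 0.22 ± 0.069 in OCI-AML2 did (adjusted p = 0.012). Without OCI-AML2 DMSO replicate 2 the OCI-AML2 value was 0.29, adjusted p = 1.85e-04. In MOLM14, XPO1 passed under quantile normalization (0.10, adjusted p = 0.0438) and when scaling to totals (0.25, adjusted p = 1.16e-04).

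The size of the ARM165 response differed between the lines for 19 of the 36 genes. The difference is the OCI-AML2 change minus the MOLM14 change, tested in 1 limma fit of all 24 libraries. It was negative for 4 genes and positive for 15, with 18.1% and 24.3% of the 14287 genes called in each direction (42.4% in all). RCC1 had the largest difference, at 0.76 ± 0.073 (adjusted p = 1.26e-08), with changes of -1.21 in OCI-AML2 and -1.97 in MOLM14. IPO7 came next at 0.52 ± 0.094 (adjusted p = 8.06e-05). RAN, SEH1L, NUP188 and KPNA2 also fell less in OCI-AML2, with differences of 0.37 ± 0.094, 0.42 ± 0.10, 0.39 ± 0.094 and 0.36 ± 0.11, and NUP160 and IPO5 with 0.40 ± 0.11 and 0.23 ± 0.090. RAE1, KPNA1 and NUP88 rose more in OCI-AML2, with differences of 0.39 ± 0.094, 0.36 ± 0.11 and 0.28 ± 0.099. KPNA6 differed by 0.20 ± 0.071. NUP210, NUP62, NUP85 and NUP107 fell more in OCI-AML2, with differences of -0.41 ± 0.069, -0.39 ± 0.075, -0.34 ± 0.098 and -0.27 ± 0.089. Of the 4 genes called in MOLM14 alone, NUP153, KPNA3 and IPO9 differed between lines, and NUP214 did not (0.14 ± 0.11, adjusted p = 0.34). Of the 2 called in OCI-AML2 alone, KPNA6 differed (adjusted p = 0.0264), and XPO1 did not (0.15 ± 0.079, adjusted p = 0.124). When scaling to totals, the median of all genes moved by -0.16, and 7 genes were called negative and 6 positive. That scaling ended the calls of NUP160, NUP88, RAE1, KPNA1, KPNA2, KPNA3, KPNA6, IPO5 and IPO9, and added NUP93, NUP50 and RANBP2 as negative. Quantile normalization also ended those of KPNA6 and IPO5, and RANBP2 passed under it (-0.35, adjusted p = 0.0059) and with no variance trend (-0.23, adjusted p = 0.0366). Calls of the difference were lost for NUP88 without MOLM14 ARM165 replicate 1 (0.23, adjusted p = 0.0635), MOLM14 DMSO replicate 4 (0.26, adjusted p = 0.0511), OCI-AML2 ARM165 replicate 4 (0.25, adjusted p = 0.0571) and OCI-AML2 DMSO replicate 1 (0.24, adjusted p = 0.0598), and for KPNA6 without MOLM14 ARM165 replicate 1 (0.19, adjusted p = 0.0519) and 3 (0.18, adjusted p = 0.0578), MOLM14 DMSO replicate 3 (0.18, adjusted p = 0.0621) and OCI-AML2 DMSO replicate 4 (0.16, adjusted p = 0.0699). For IPO5 the call was lost without MOLM14 ARM165 replicate 1 (0.22, adjusted p = 0.0747) and 2 (0.19, adjusted p = 0.0967), MOLM14 DMSO replicate 2 (0.24, adjusted p = 0.0512), 3 (0.22, adjusted p = 0.0732) and 4 (0.23, adjusted p = 0.0628), OCI-AML2 ARM165 replicate 1 (0.21, adjusted p = 0.0775), 3 (0.22, adjusted p = 0.0673) and 4 (0.24, adjusted p = 0.0504) and OCI-AML2 DMSO replicate 3 (0.19, adjusted p = 0.0935) and 4 (0.19, adjusted p = 0.095). NUP214 passed without OCI-AML2 ARM165 replicate 1 (0.25, adjusted p = 0.0323), while NUP98 and XPO1 passed without OCI-AML2 DMSO replicate 2 (0.21, adjusted p = 0.0382 for NUP98, and 0.23, adjusted p = 0.00323 for XPO1).

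**Figure D3:**
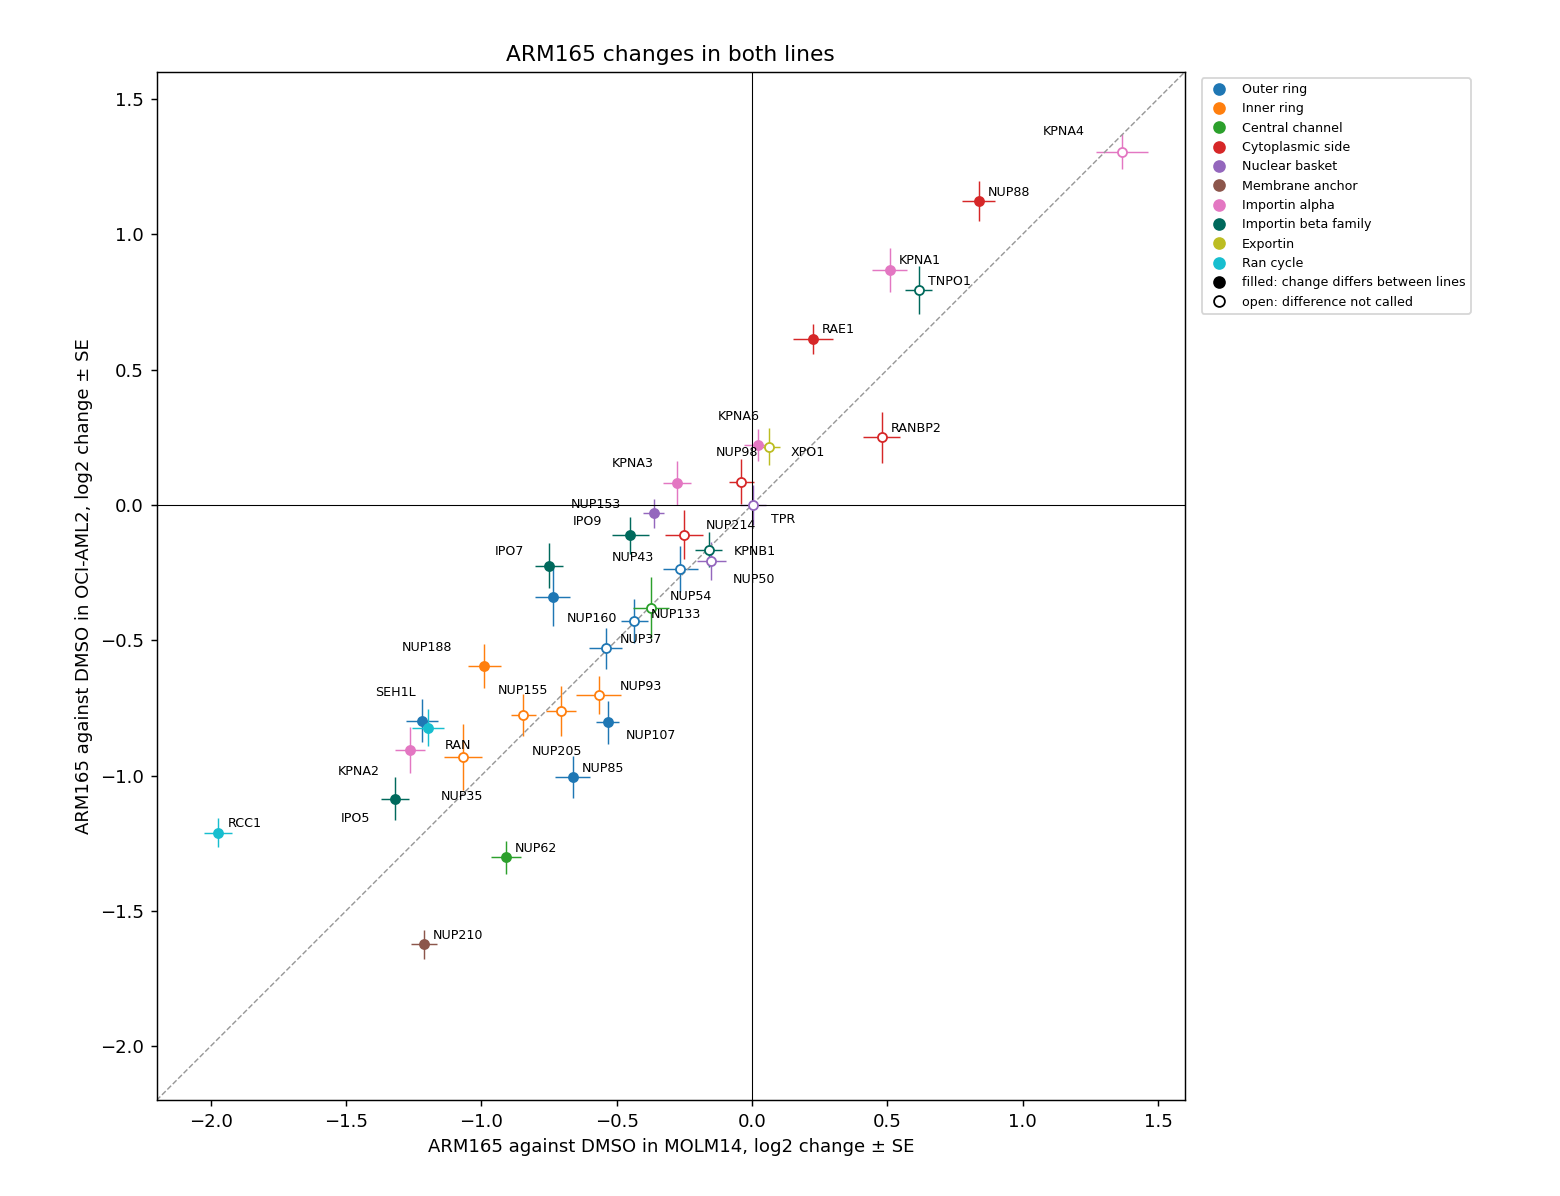
ARM165 log2 change ± SE in MOLM14 (horizontal) against OCI-AML2 (vertical) for the 36 genes, coloured by role, with filled points where the change differed between the lines. No gene called in both lines lies in opposite quadrants; RCC1 lies far above the diagonal line of equal change and NUP210 below it.

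AZ2 moved none of the 36 genes past the test in either line. In MOLM14, 0 of 36 were called by limma, 3 had an unadjusted p under 0.05, and 0% of all 15288 genes were called. The changes ranged from -0.18 for NUP214 to 0.12 for NUP88, and the smallest adjusted p was 0.719. The 95% intervals of the 36 reached from -0.33 to 0.25. In OCI-AML2, 0 of 36 were called, 0 had an unadjusted p under 0.05, and 0.111% of 15377 genes were called (0.104% lower and 0.00650% higher). The changes there ranged from -0.14 to 0.041, with intervals from -0.32 to 0.23. AZ2 and DMSO libraries overlapped for all but NUP85, NUP98, RANBP2 and TNPO1 in MOLM14 and KPNA4 in OCI-AML2, which is 4 of 36 genes in MOLM14, against 4.43% of all genes tested, and 1 of 36 in OCI-AML2, against 2.67%. The ARM165 changes of RCC1, NUP210 and KPNA4 lie outside these interval ranges, which still leave room for small AZ2 effects. The AZ2 change differed between the lines for 0 of 36 genes, with 0 at an unadjusted p under 0.05 and 0.0280% of 14287 genes called.

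ARM165 and AZ2 differed directly in most of the 36 genes. In MOLM14, 25 were lower and 7 higher with ARM165 than with AZ2, against 34.0% and 36.1% of all genes (70.1% in either direction). OCI-AML2 had 21 lower and 8 higher, against 31.4% and 34.5% (65.8%). RCC1 differed by -2.02 ± 0.052 in MOLM14 and -1.17 ± 0.054 in OCI-AML2, NUP210 by -1.14 ± 0.048 in MOLM14 and -1.60 ± 0.054 in OCI-AML2, and KPNA4 by 1.39 ± 0.097 in MOLM14 and 1.44 ± 0.066 in OCI-AML2. XPO1 was higher with ARM165 than with AZ2 in both lines, at 0.12 ± 0.041 in MOLM14 (adjusted p = 0.0145) and 0.26 ± 0.069 in OCI-AML2 (adjusted p = 0.00385), although the MOLM14 call was lost with TMM scaling (0.088, adjusted p = 0.0636). NUP160 in OCI-AML2 did not pass, at -0.25 ± 0.11 (adjusted p = 0.0525), but passed without ARM165 replicate 4 (-0.28, adjusted p = 0.0497), AZ2 replicate 3 (-0.28, adjusted p = 0.0483) and DMSO replicate 2 (-0.25, adjusted p = 0.0429). It also passed under quantile normalization (-0.42, adjusted p = 0.00218), with TMM scaling (-0.29, adjusted p = 0.0215), with no variance trend (-0.25, adjusted p = 0.0189) and with a minimum value of 50 (-0.25, adjusted p = 0.0408). When scaling to totals, NUP98 (0.29, adjusted p = 6.16e-05), TPR (0.30, adjusted p = 5.59e-05) and KPNA6 (0.32, adjusted p = 2.06e-05) were higher with ARM165 than with AZ2 in MOLM14. This was 1 pair of compounds in each line, with p-values adjusted over all genes. The comparisons of ARM165 with AZ2 and with DMSO share the ARM165 libraries, and those of ARM165 and AZ2 with DMSO share the DMSO libraries.

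Among other genes of the pathway, falls outnumbered rises with ARM165. This list too was chosen with earlier results of these data known, so it is no independent check of the 36 genes. Of 32 listed, 31 were tested and KPNA7 did not pass the filter on low values. In MOLM14, 22 of 31 fell and 7 rose with ARM165, against 34.0% and 35.5% of all genes, and in OCI-AML2 18 fell and 5 rose, against 31.6% and 34.2%. Among the 5 Ran regulators, 5 fell in MOLM14 and 4 in OCI-AML2. RANBP1, which helps RAN shed GTP in the cytoplasm, changed by -1.74 ± 0.067 in MOLM14 and -1.79 ± 0.057 in OCI-AML2. RANGAP1, the GTPase-activating protein of RAN, changed by -0.83 ± 0.047 in MOLM14 and -1.30 ± 0.061 in OCI-AML2, and RANGRF by -1.07 ± 0.067 in MOLM14 and -1.16 ± 0.079 in OCI-AML2. The exportin of importin alpha, CSE1L, changed by -1.07 ± 0.049 in MOLM14 and -0.98 ± 0.068 in OCI-AML2, and IPO4, a histone import receptor, by -1.74 ± 0.076 in MOLM14 and -1.23 ± 0.077 in OCI-AML2. The membrane nucleoporin NDC1 changed by -1.04 ± 0.051 in MOLM14 and -1.52 ± 0.070 in OCI-AML2. Higher in both lines were KPNA5, an importin alpha close to KPNA1 and KPNA6, at 1.47 ± 0.097 in MOLM14 and 1.42 ± 0.081 in OCI-AML2, and XPOT, the tRNA exportin, at 1.14 ± 0.038 in MOLM14 and 1.25 ± 0.072 in OCI-AML2. NXF1, the main mRNA export receptor, changed by 0.90 ± 0.054 in MOLM14 and 1.15 ± 0.050 in OCI-AML2, while its partner NXT1 changed by -1.37 ± 0.11 in MOLM14 and -1.57 ± 0.075 in OCI-AML2. DDX19B, a helicase of mRNA export, changed by 0.63 ± 0.090 in MOLM14 and 0.74 ± 0.092 in OCI-AML2, while its close relative DDX19A changed by -0.94 ± 0.062 in MOLM14 and -0.53 ± 0.055 in OCI-AML2. DDX19A and DDX19B are close copies, so how their reads were split is uncertain. In opposite directions in the 2 lines, and named after their values were seen, were AHCTF1, which seeds pore assembly on chromatin (-0.35 ± 0.066 in MOLM14 and 0.25 ± 0.067 in OCI-AML2, with a difference between lines of 0.61 ± 0.098, adjusted p = 2.39e-05), and XPO6, the exportin of actin (0.18 ± 0.065 in MOLM14 and -0.26 ± 0.081 in OCI-AML2, with a difference of -0.45 ± 0.10, adjusted p = 0.00131). With AZ2, limma called 0 of the 31 in either line, and 2 in MOLM14 and 1 in OCI-AML2 had an unadjusted p under 0.05.

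**Figure D4:**
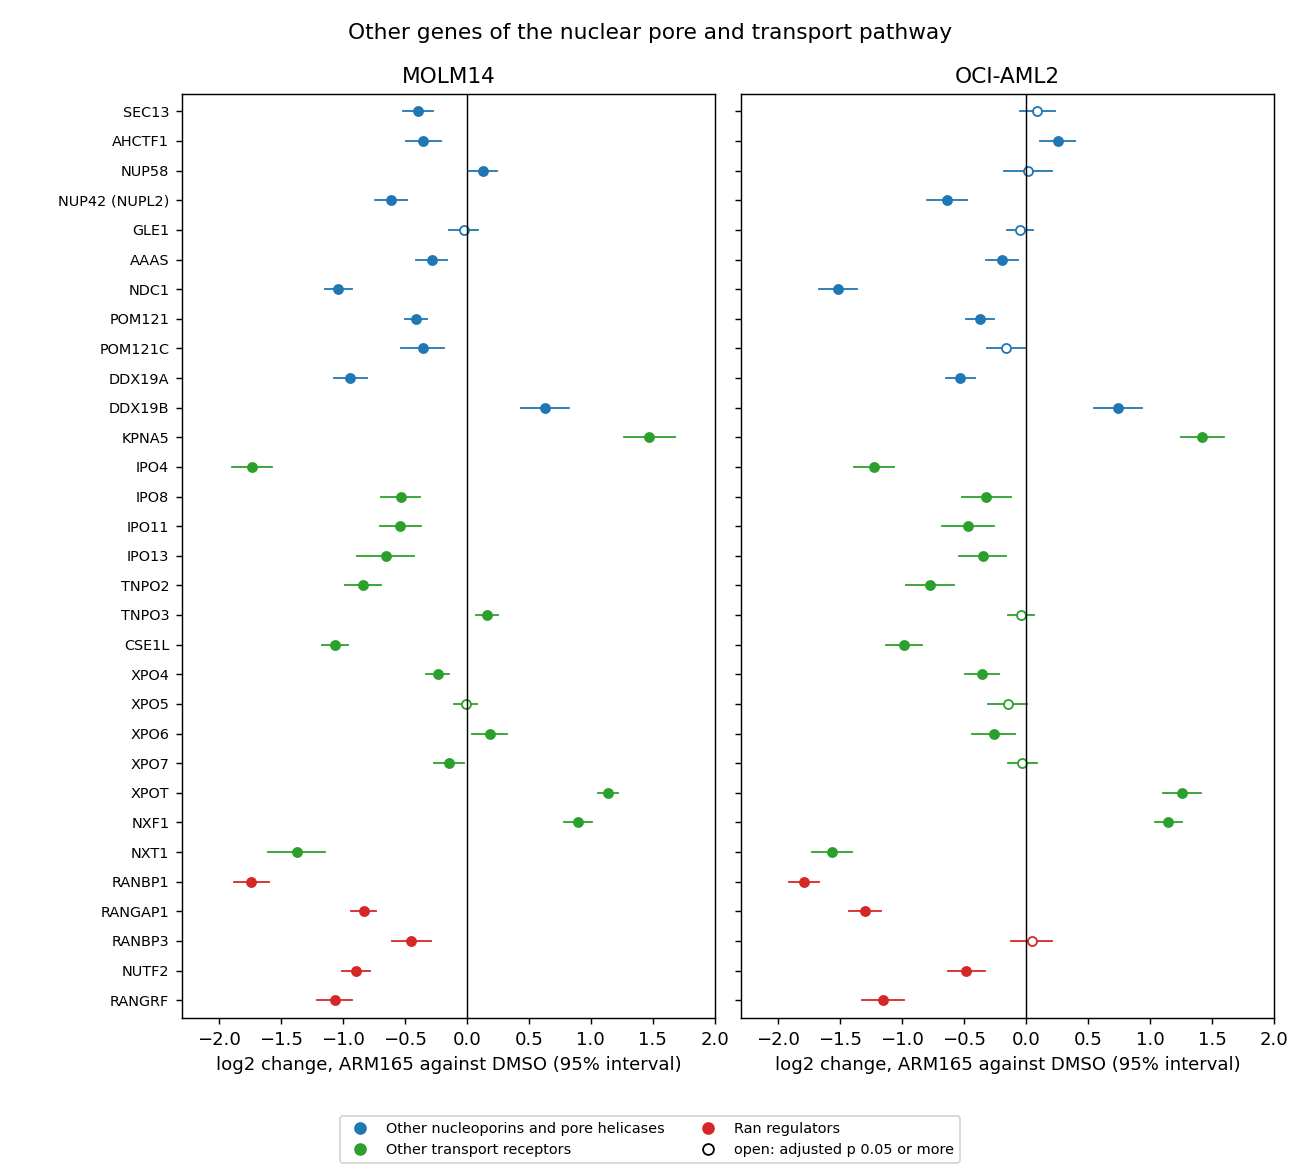
ARM165 log2 change against DMSO with 95% interval for the 31 other pathway genes tested, by line. RANBP1, IPO4 and NXT1 lie left of -1, and KPNA5 and XPOT lie right of 1, in both lines.

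**Figure D5:**
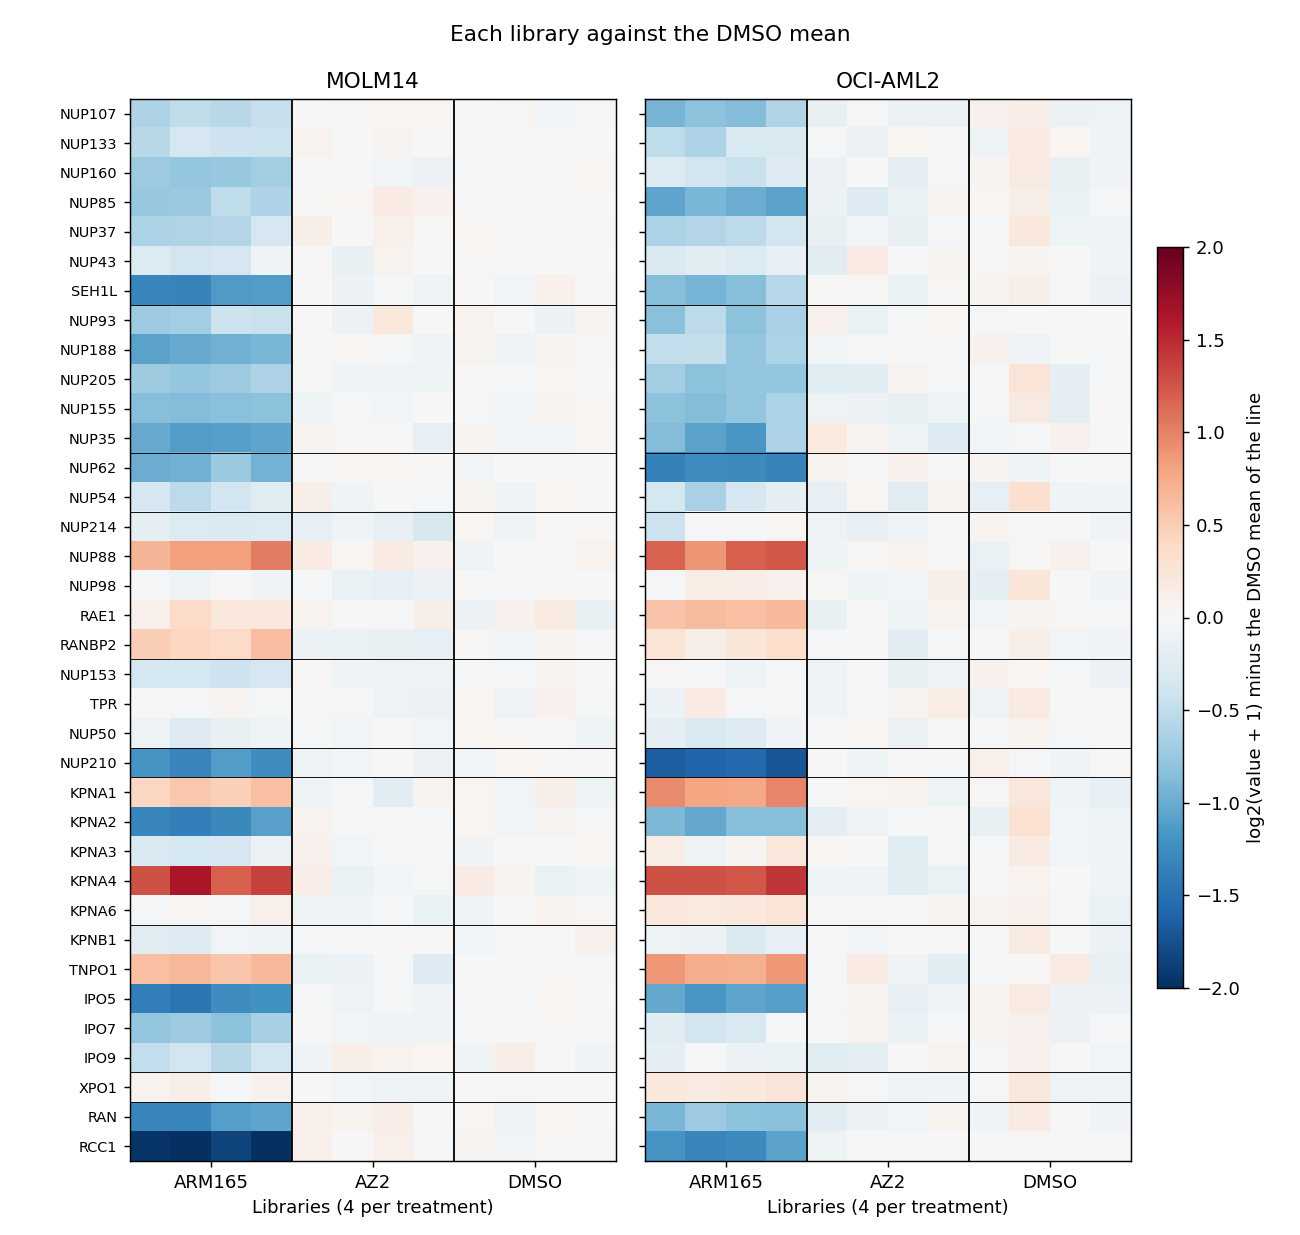
The 36 genes (rows) in each of the 24 libraries (columns), as log2 difference from the mean of the DMSO libraries of the same line. The ARM165 columns differ from the AZ2 and DMSO columns in both lines, with most rows lower and a few higher.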

How the data were processed

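The members and gene lists were chosen with earlier results of these data known. Per the submitters' processing notes the authors quantified transcripts with kallisto (version not stated); the library kit was stranded per the labels' protocols. As deposited, the signal in each table is an estimated count for a gene symbol, normalized by the authors, with a separate table for each line. The scaling, annotation and genome build are not given in the sources used here. Between 13.7 and 15.4% of values were whole within 0.01 after division by the value of 1 read, so no test that needs whole counts was run. A gene entered the tests of a line if 4 or more of its libraries held a value of 10 or above. To log2(value + 1), models with 1 mean per group were fitted by limma 3.58.1 (R 4.3.3) using empirical Bayes moderation along a variance trend. P-values were adjusted by Benjamini-Hochberg over all genes, and 0.05 was the threshold. The scripts were tested on simulated data. Genes named with values in every library were the largest change of each role, those that rose, those with the clearest line differences, and KPNA2, KPNB1, XPO1, NUP98, NUP214, RAN and RCC1. Of the other pathway genes, up to 6 in each direction with the smallest adjusted p over both lines were named, and NXT1, DDX19A, AHCTF1 and XPO6 were added after their values were seen. Overlapping exons were found in GENCODE release 29, and figures drawn with matplotlib 3.10.9 in Python 3.11.15. No column was left out.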

Additional observations from a re-analysis of the deposited data

Results flagged for a closer look

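Of 216 groups of 4 libraries (36 genes in 6 groups), 10 held 1 value set apart from the other 3 by more than Dixon's 95% critical value, where chance gives about 1 in 20. NUP37 stood at 3296 in MOLM14 ARM165 replicate 4, against 2696 to 2798 in the other 3 libraries. NUP62 stood at 1113 in MOLM14 ARM165 replicate 3, against 944 to 971 in the other 3 libraries. NUP214 stood at 599.9 in MOLM14 ARM165 replicate 1, against 557 to 563 in the other 3 libraries. NUP214 stood at 637 in MOLM14 DMSO replicate 2, against 691 to 698 in the other 3 libraries. IPO7 stood at 1612 in MOLM14 DMSO replicate 1, against 1675 to 1687 in the other 3 libraries. NUP214 stood at 898 in OCI-AML2 ARM165 replicate 1, against 1180.1 to 1234 in the other 3 libraries. KPNA4 stood at 2403 in OCI-AML2 ARM165 replicate 4, against 2109 to 2153 in the other 3 libraries. RANBP2 stood at 290.4 in OCI-AML2 AZ2 replicate 3, against 328 to 335 in the other 3 libraries. NUP50 stood at 1038 in OCI-AML2 DMSO replicate 2, against 972 to 979.9 in the other 3 libraries. KPNA3 stood at 3171 in OCI-AML2 DMSO replicate 2, against 2695 to 2762 in the other 3 libraries. The ARM165 change of 19 of the 36 genes differed between the lines, against 42.4% of all 14287 genes tested (18.1% negative and 24.3% positive). The difference is given as the OCI-AML2 change minus the MOLM14 change ± SE, from a test of the difference itself in limma. It was negative for NUP107 (-0.27 ± 0.089), NUP85 (-0.34 ± 0.098), NUP62 (-0.39 ± 0.075) and NUP210 (-0.41 ± 0.069). Among nucleoporins and pore factors it was positive for NUP160 (0.40 ± 0.11), SEH1L (0.42 ± 0.10), NUP188 (0.39 ± 0.094), NUP88 (0.28 ± 0.099), RAE1 (0.39 ± 0.094) and NUP153 (0.33 ± 0.062). Among transport receptors it was positive for KPNA1 (0.36 ± 0.11), KPNA2 (0.36 ± 0.11), KPNA3 (0.36 ± 0.098), KPNA6 (0.20 ± 0.071), IPO5 (0.23 ± 0.090), IPO7 (0.52 ± 0.094) and IPO9 (0.34 ± 0.096), and in the Ran cycle for RAN (0.37 ± 0.094) and RCC1 (0.76 ± 0.073).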

How the results depend on the processing

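Scaling to library totals changed the split of calls most: 10 genes were higher with ARM165 than with DMSO in MOLM14, and the difference between lines was negative for 7 genes and positive for 6. Among genes called with or without this scaling, the sign turned in MOLM14 against DMSO for NUP98 (0.15), NUP50 (0.041) and KPNB1 (0.032). Against AZ2 it turned there for NUP50 (0.091) and KPNB1 (0.057). The cause was not tested. The other pseudocounts, filters, TMM, quantile normalization, variance trend and restricted fits kept each count within 1.5 times. Leaving out 1 library at a time gave 25 to 26 lower and 5 to 6 higher genes against DMSO in MOLM14, 19 to 22 and 7 to 8 in OCI-AML2, 24 to 25 and 6 to 7 against AZ2 in MOLM14, 16 to 22 and 8 to 9 against AZ2 in OCI-AML2, and 4 negative and 12 to 17 positive line differences. AZ2 against DMSO gave 0 in every alternative. Same-numbered libraries deviated together with correlations of -0.026 to 0.056 in MOLM14 (median 0.019) and -0.037 to 0.047 in OCI-AML2 (median 0.011). Libraries with different numbers had median correlations of -0.0074 in MOLM14 and -0.0050 in OCI-AML2. Correlations this small cannot tell whether same-numbered libraries were prepared together. With a replicate block the counts against DMSO were 26 and 6 in MOLM14 and 22 and 7 in OCI-AML2, where RANBP2 lost its call (adjusted p = 0.0508). Of the called changes, 26 of 32 in MOLM14 and 25 of 30 in OCI-AML2 against DMSO held in all 22 alternatives, as did 10 of 19 line differences in 34. At this depth the median SE of a change was 0.056 in MOLM14 and 0.078 in OCI-AML2.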
